A study of Homo sapiens with 30 samples.

Results

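Macrophage-like cells made from the THP-1 line were compared after 24 h and after 1 h of culture without particles, with 3 arrays at each time, 6 of the 30 arrays of the series. The arrays were chosen by their titles, and the comparison covered every gene that a probe set names alone and that passed a filter on dim probe sets, 10050 genes. THP-1 is an established human line from an acute monocytic leukaemia, and all arrays come from this 1 line. Every group, controls included, had first been treated with PMA (phorbol 12-myristate 13-acetate) at 82 nM for 24 h. The attached cells were then rinsed, scraped off, spun down, counted and replated, and the 1 h or 24 h ran from that replating, in medium that the labels do not describe as holding PMA. RNA was prepared from the adherent cells, so cells that had not attached again were not measured. The other 24 arrays held the same cells given 10 or 100 µg/ml of MWCNT, multi-walled tubes of carbon, or of TiO2-NB, belts of titanium dioxide, for 1 or 24 h, in 8 groups of 3. The labels call the replicates biological but do not say whether they began as separate PMA treatments, so the p-values measure the spread between these samples.

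PMA imitates the lipid messenger diacylglycerol and activates protein kinase C, and under it THP-1 cells stop dividing, attach and take on receptors and enzymes of macrophages. Detaching and replating such cells is itself a stimulus to which immediate early genes, the first transcribed after a signal, can respond. A macrophage is further known for its matrix proteases, its scavenger receptors, its handling of lipids and its interferon and antioxidant programmes, and the gene lists below follow these roles.

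Transcripts were measured as log2 intensities on Affymetrix 3-prime expression arrays, on which 1 unit is a doubling. There are no reads on an array, so precision rests on how many arrays there are; the residual SD had a median of 0.128 over genes. Arrays correlated at 0.994 to 0.996 within the 1 h group, 0.993 to 0.996 within the 24 h group and 0.966 to 0.972 between the groups. The first principal component of the 6 arrays took 78.2% of the variance and parted the times. On the second, which took 8.74%, 24 h replicate 3 (-13.62) and 1 h replicate 2 (-8.3) lay apart from the other arrays (3.412 to 8.833). The difference between 3-prime and 5-prime probe sets of GAPDH, a sign of RNA integrity, was 0.25 to 0.39 at 1 h and 0.28 to 0.34 at 24 h. That of ACTB was 0.50 to 0.75 at 1 h and 0.35 to 0.49 at 24 h, and its part in the results was not tested. Of 29 macrophage markers, 27 lay above the array median on all 6 arrays, among them CD14, CSF1R, ITGAM and CD163. MRC1, the mannose receptor of macrophages, lay below it on all 6. Of 11 lymphocyte markers, 10 lay below the median on all 6 arrays and 0 above it on all 6.

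Of the 10050 genes, 3708 (36.9%) differed between 24 h and 1 h at an adjusted p under 0.05, 2087 (20.8%) higher and 1621 (16.1%) lower at 24 h. The 3 arrays of one time lay wholly above those of the other for 4522 genes (45%), and 3552 of these were called. Falls were larger than rises: of the 523 called genes with at least a 2-fold change, 191 (1.9% of genes tested) rose and 332 (3.3%) fell, and 36 rose and 60 fell at least 4-fold. The median change of all genes was 0.03, and 5th and 95th percentiles were -0.76 and 0.62. Changes are given below as log2 at 24 h minus 1 h with the standard error of the fit, n = 3 arrays at each time, and p-values are from limma, adjusted over all genes tested. Under a test against a fold change of 1.5 in place of 1, 466 genes passed, 174 higher and 292 lower.

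**Figure D1:**
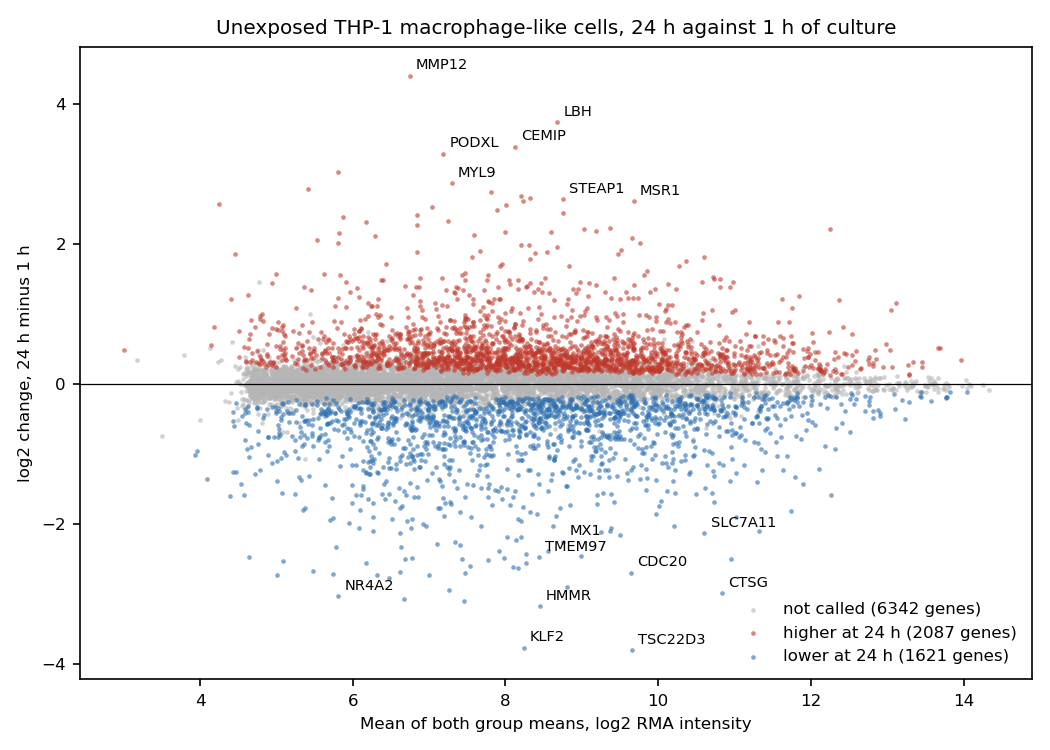
Change of each of 10050 genes from 1 h to 24 h without particles (vertical axis, log2) against its mean level over both times (horizontal axis, log2 RMA intensity). Each point is a gene, 2087 called higher are red, 1621 called lower are blue, and the falls of KLF2 and TSC22D3 and the rise of MMP12 lie farthest from 0.

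The largest rise was that of MMP12, macrophage elastase, whose levels were 4.69, 4.62 and 4.33 at 1 h and 9.28, 9.52 and 8.04 at 24 h. All 3 arrays at 24 h lay more than 3 units above the highest at 1 h, and replicate 3 at 24 h was the lowest of its group. The change was 4.40 ± 0.33 (adjusted p = 1.78e-10), a 21.2-fold rise. LBH, a transcriptional cofactor, stood at 6.48, 7.11 and 6.83 at 1 h and 10.62, 10.69 and 10.35 at 24 h, a change of 3.74 ± 0.16 (adjusted p = 8.2e-15). CEMIP, which takes part in the breakdown of hyaluronan, read 6.41, 6.95 and 5.93 at 1 h and 9.54, 9.76 and 10.17 at 24 h, a change of 3.39 ± 0.27 (adjusted p = 3.54e-10). In both genes the groups were far apart. That the lowest array at 24 h exceeded the highest at 1 h was a condition for naming the largest rises. PODXL, an anti-adhesive sialomucin of the cell surface, rose by 3.29 ± 0.28. STEAP1, a metalloreductase of the plasma membrane, had the closest arrays among the largest rises, with 7.39, 7.41 and 7.50 at 1 h and 10.08, 10.19 and 9.95 at 24 h and a change of 2.64 ± 0.06 (adjusted p = 9.7e-20). The other genes among the 15 largest rises were SPARCL1, MYL9, MYOZ2, CHODL, CHST15, HMGA2, MSR1, MTHFD2L, GJA1 and UST, with changes from 2.55 to 3.03. For MMP12, SPARCL1, MYOZ2 and GJA1 the mean at 1 h lay under the 25th percentile of every control array (4.80 to 4.89), where arrays are known to understate fold changes.

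The largest fall was that of TSC22D3, the glucocorticoid-induced leucine zipper, whose levels were 11.48, 11.72 and 11.47 at 1 h and 7.53, 7.77 and 7.96 at 24 h. The groups were over 3 units apart, against a spread of less than 0.5 within either time. It fell by 3.80 ± 0.12 (adjusted p = 7.76e-18), or 14.0-fold, on the probe set that stands for it. The other kept probe set of TSC22D3 fell by 2.10 ± 0.15, so the size and the rank hold for the chosen one. KLF2, a transcription factor that restrains inflammatory activation of monocytes, read 9.80, 10.67 and 9.90 at 1 h and 6.67, 6.07 and 6.35 at 24 h. Replicate 2 was the highest at 1 h and the lowest at 24 h, and the change was -3.76 ± 0.25 (adjusted p = 2.05e-11). NR4A2, an orphan nuclear receptor of the immediate early class, stood at 6.97, 8.25 and 6.75 at 1 h and 4.42, 4.13 and 4.33 at 24 h, with replicate 2 well above the other 1 h arrays and a change of -3.03 ± 0.47 (adjusted p = 1.52e-05). Of the 15 largest falls, 9 encode proteins of mitosis (HMMR, ASPM, DLGAP5, TTK, NEK2, KIF20A, KIF18A, NDC80 and CDC20). The remaining 3 were CTSG of the granules (-2.98), ACAT2 of sterol synthesis (-2.90) and CCN2, the connective tissue growth factor (-2.71). For NR4A2, KIF18A and CCN2 it was the 24 h mean that lay under that 25th percentile. Of the genes named below, the 1 h mean of MMP10, PPBP, PLK2, MRC1 and VCAM1 and the 24 h mean of MS4A3 also lay under it, so their changes are set by values near the floor.

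Each gene is read by 1 probe set, the brightest, and others of the same gene could move less. Of 121 called genes named by the rule that had several kept probe sets, 39 had another one not called the same way and 40 another one with under 50% of the log2 change. The least change among their other probe sets was -1.01 for TMEM97, 0.68 for TPM2, -0.43 for SCD, -0.04 for CD300A, -0.03 for FN1, 0.48 for PXN, -0.38 for TYMS, 0.23 for MMP19, -0.24 for EZR, 0.20 for IL1RN, -0.17 for TNFAIP2 and -0.47 for PPARD. Smaller changes of PLK3, SELPLG, TXNIP, CASP1, NOP16, CCND1, HBEGF, VARS1, PRKCA, ADAM10 and NR4A1 were likewise not called on at least 1 other probe set.

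The 46 gene lists held 943 distinct genes tested, of which 218 were higher and 322 lower at 24 h. For each list the number of members called and the median change are given, to be read against 20.8% higher, 16.1% lower and a median of 0.03 over all genes. Against 36.9% of all genes, 35.7% of cytokines, 33.3% of PMA receptor genes and 33.3% of hypoxia and glycolysis genes were called. Toll-like receptor and inflammasome genes stood at 31.6%, CC chemokines at 27.3% and cytosolic ribosomal proteins at 8.0%. None of these lists exceeded the share over all genes. Where leaving out 1 array moved a count of 3 or more by over 1.5 times, that is said beside it; counts of 2 or fewer moved with single arrays in many of the lists.

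**Figure D2:**
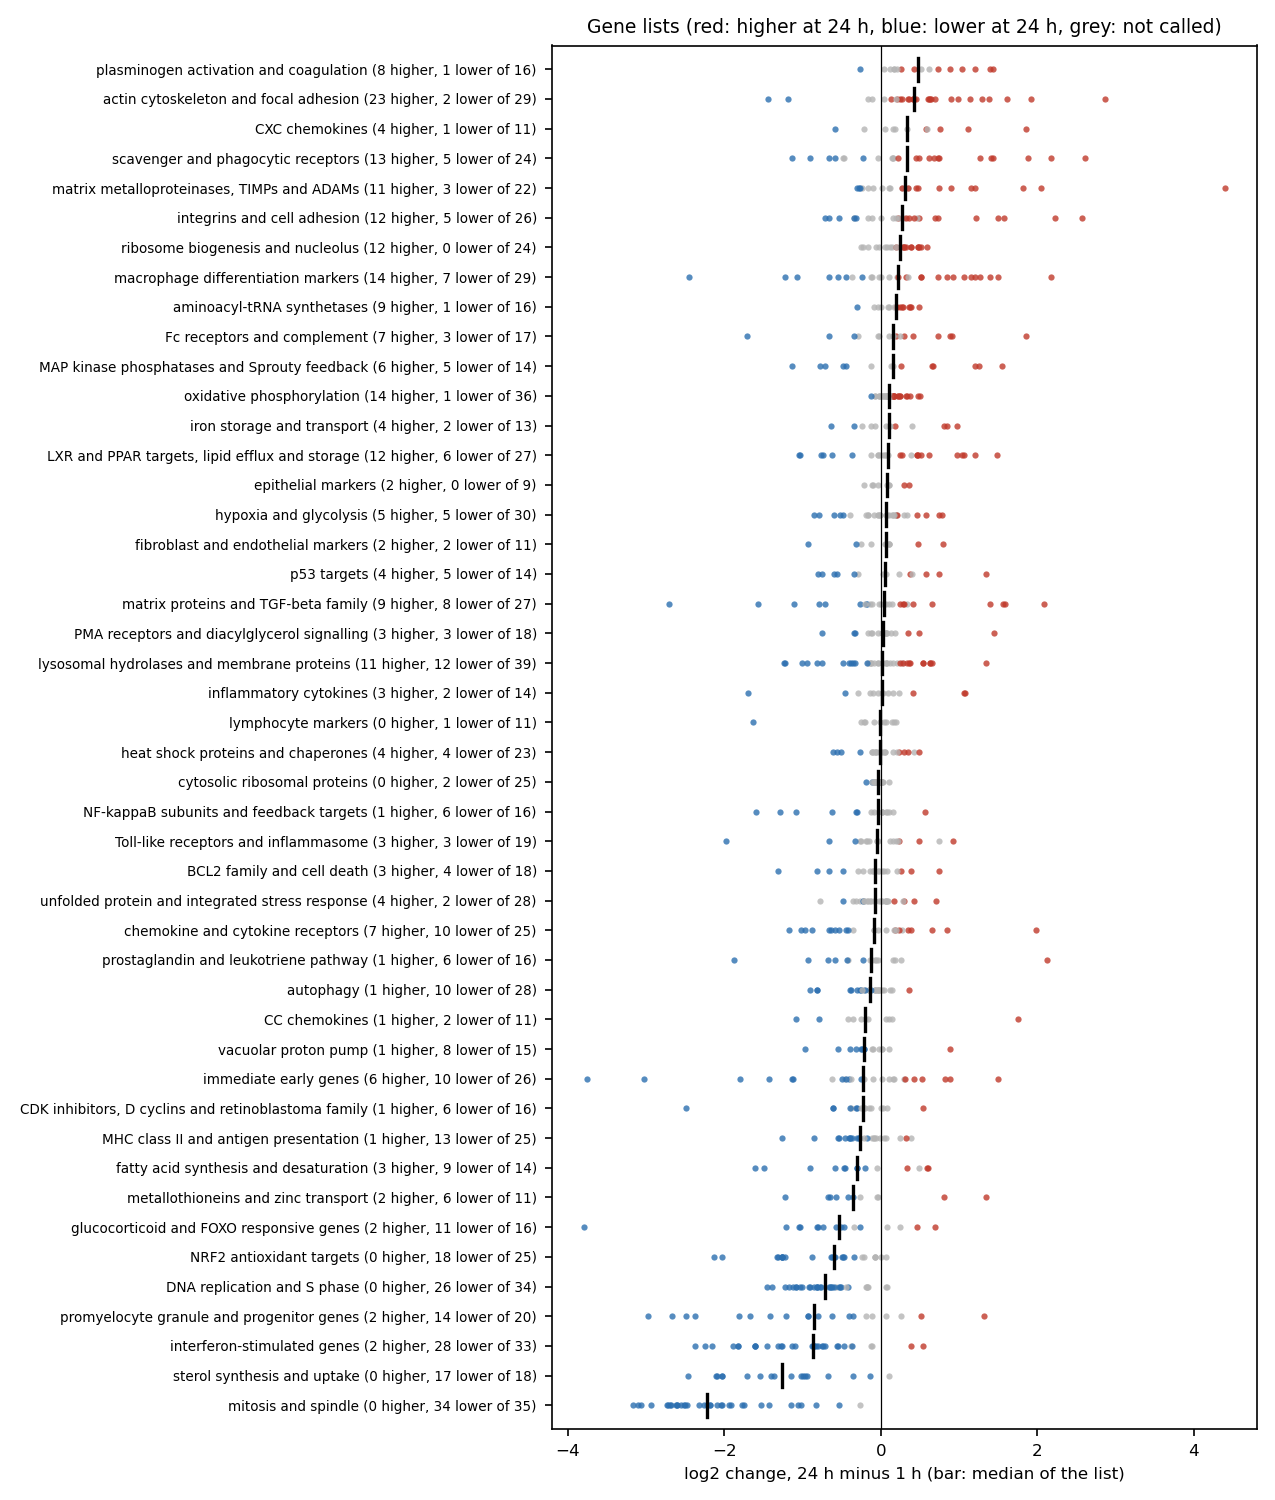
Change of every tested member of the 46 lists (points, log2, 24 h minus 1 h; red higher, blue lower, grey not called), with the list's median as a black bar. Mitosis (median -2.22), sterol synthesis (-1.26) and interferon-stimulated genes (-0.87) lie lowest, and plasminogen activation (0.48) and actin cytoskeleton (0.43) highest.

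The genes of cell division fell almost without exception. Of 35 genes of mitosis and the spindle, 34 were lower at 24 h, 0 were higher and the median change was -2.22; 32 of the 34 fell at least 2-fold. HMMR, a spindle and hyaluronan-binding protein, stood at 10.22, 9.72 and 10.17 at 1 h and 6.80, 7.09 and 6.71 at 24 h, a change of -3.17 ± 0.19 (adjusted p = 3.18e-12). CDC20, the activator that lets the anaphase-promoting complex start anaphase, read 11.17, 10.79 and 10.99 at 1 h and 8.32, 8.31 and 8.24 at 24 h. Its 3 arrays at 24 h lay within 0.1 of each other and over 2 units under those at 1 h, and it fell by 2.69 ± 0.16 (adjusted p = 2.27e-12). ASPM, which organises spindle poles, changed by -3.10 ± 0.21, DLGAP5, a spindle assembly factor, by -3.07 ± 0.24, and TTK, the spindle checkpoint kinase, by -2.94 ± 0.16. MKI67, the gene of the proliferation marker Ki-67, fell by 1.02 ± 0.19 (adjusted p = 0.000175), from 7.48, 7.04 and 7.35 at 1 h to 6.38, 6.26 and 6.17 at 24 h. In these bulk samples fewer cells in division and less RNA per dividing cell cannot be told apart.

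Genes of DNA replication fell as well but by less. Of 34 members, 26 were lower and 0 higher, with a median of -0.71. RRM2, the subunit of ribonucleotide reductase made in S phase, changed by -1.45 ± 0.24 (adjusted p = 3.45e-05), GINS1, of the replicative helicase, by -1.39 ± 0.21 (adjusted p = 1.16e-05), and RFC3, of the clamp loader, by -1.18 ± 0.22 (adjusted p = 0.000118). TYMS, thymidylate synthase, stood at 9.98, 9.67 and 9.86 at 1 h and 8.27, 8.40 and 9.18 at 24 h. Replicate 3 at 24 h lay well above the other 24 h arrays and still under all 1 h arrays, and the change was -1.22 ± 0.23 (adjusted p = 0.000145). Among 16 inhibitors of cyclin-dependent kinases, D cyclins and retinoblastoma relatives, 1 was higher and 6 were lower, at a median of -0.23. CDKN3, a phosphatase that is itself made in dividing cells, fell by 2.49 ± 0.16, and CDKN1B, the inhibitor p27, fell by 0.61 ± 0.15. CCND1, cyclin D1, was the member that rose, by 0.54 ± 0.06 (adjusted p = 2e-07). CDKN1A, the inhibitor p21, read 11.59, 11.41 and 11.42 at 1 h and 12.20, 12.11 and 11.86 at 24 h, and the groups did not overlap in its change of 0.58 ± 0.10 (adjusted p = 4.79e-05). It belongs to the 14 p53 targets, of which 4 rose and 5 fell around a median of 0.05: PLK2 (1.34 ± 0.29) and GADD45A (0.74 ± 0.09) rose, and SESN1 (-0.80 ± 0.10), PLK3 (-0.75 ± 0.08) and PPM1D (-0.60 ± 0.08) fell.

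The promoters of both groups are shown because their letters differed between the 2 groups. The stretch of 250 bases before the start of each gene was taken from RefSeq (GRCh38.p14), where 30 of the 35 mitosis genes and 30 of the 34 replication genes had an entry. The cell cycle homology region, searched as TTTGAA on both strands, is a short element of promoters of genes expressed in G2 and mitosis. It was found in 17 of 30 mitosis genes (56.7%) and 1 of 30 replication genes (3.33%), against 13.6% of all 27305 promoters and 8.78% of those of genes tested. The E2F site, searched as TTTCCCGC, TTTGGCGC or TTTCGCGC on both strands, was found in 2 of 30 mitosis genes (6.67%) and 11 of 30 replication genes (36.7%), against 2.38% of all promoters and 3.73% of genes tested. A match describes the letters and does not show that a protein binds there. Below, capitals mark the cell cycle homology region with 12 bases before and after it, or TTCAAA where it lies on the other strand, in the 5 mitosis genes of largest fall that hold it, of which TOP2A was chosen after its value was seen:
HMMR: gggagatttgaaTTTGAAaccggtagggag
ASPM: cggatgcaatcaTTCAAAtgaagcgccgcc
DLGAP5: cctttcaatcaaTTCAAAtatcgcacggag
CDC20: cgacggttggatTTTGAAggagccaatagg
TOP2A: ctgattggtttaTTCAAAcaaaccccggcc
These lie at chr5:163460598-163460627, plus strand (HMMR), chr1:197146765-197146794, minus strand (ASPM), chr14:55191677-55191706, minus strand (DLGAP5), chr1:43358904-43358933, plus strand (CDC20) and chr17:40418030-40418059, minus strand (TOP2A). HMMR holds a second match in lower case just before the one in capitals. TOP2A, DNA topoisomerase II, fell by 2.56 ± 0.15. For the replication genes, the whole 250 bases before TYMS (chr18:657403-657652, plus strand) are shown, with the E2F match on the other strand, GCGGGAAA, in capitals:
TYMS: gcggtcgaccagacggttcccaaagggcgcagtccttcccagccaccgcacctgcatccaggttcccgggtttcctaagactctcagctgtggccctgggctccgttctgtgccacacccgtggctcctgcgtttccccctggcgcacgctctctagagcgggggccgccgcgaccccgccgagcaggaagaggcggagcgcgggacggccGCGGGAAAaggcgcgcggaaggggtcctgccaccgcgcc

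**Figure D3:**
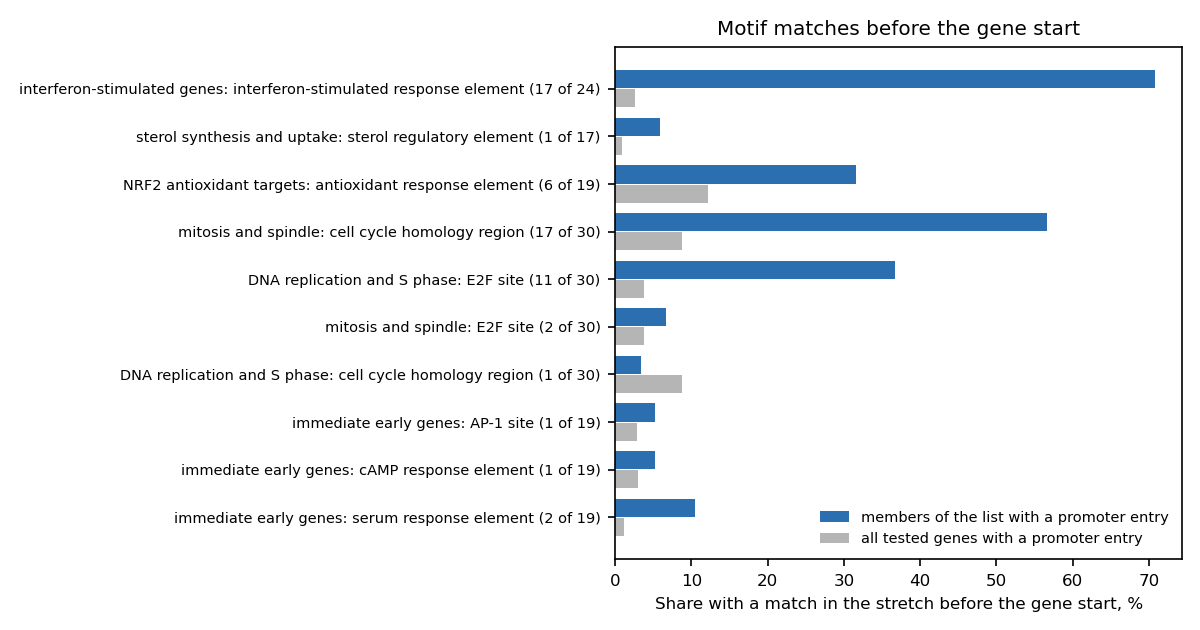
Share of genes with a motif match in the 250 bases before the start (horizontal axis, percent), for list members with a promoter entry (blue) and for all tested genes with one (grey). The interferon-stimulated response element was found in 70.8% of interferon-stimulated genes and the cell cycle homology region in 56.7% of mitosis genes, against 2.58% and 8.78% of tested genes.

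Interferon-stimulated genes were the next large group to fall. Of 33 members, 28 were lower and 2 higher at 24 h, with a median of -0.87. MX1, a GTPase that blocks viruses, stood at 10.12, 9.65 and 9.86 at 1 h and 7.94, 7.80 and 7.14 at 24 h. All 3 arrays at 24 h lay over 1.5 units under those at 1 h, replicate 3 the lowest, and the change was -2.25 ± 0.22 (adjusted p = 1.18e-08). IFITM1, a membrane protein against viral entry, read 10.17, 9.35 and 9.71 at 1 h and 7.56, 7.25 and 7.28 at 24 h, a change of -2.38 ± 0.25 (adjusted p = 5.3e-08). IRF7, the factor that drives interferon alpha genes, fell by 2.16 ± 0.23 (adjusted p = 5.39e-08) and IFI44L fell by 1.89 ± 0.20 (adjusted p = 6.21e-08). GBP1, a guanylate-binding protein, and ISG20, an exonuclease, were the members that rose, by 0.54 ± 0.15 and 0.39 ± 0.09. IRF1, a transcription factor of the interferon response listed among the NF-kappaB targets, fell by 1.29 ± 0.14 (adjusted p = 1.02e-07), and TNFSF10, the death ligand TRAIL, fell by 1.70 ± 0.28 (adjusted p = 2.71e-05).

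The interferon-stimulated response element, searched on both strands as TTTC, any 2 bases and TTTC again, was found before the start of 17 of the 24 members with a promoter entry (70.8%), against 3.07% of all promoters and 2.58% of genes tested. It stood in 14 of the 20 members with an entry that fell. It also stood in GBP1 and ISG20, which rose. Capitals mark the match, or its reverse complement where it lies on the other strand, with up to 12 bases around it, in the 5 genes of largest fall that hold it, of which IFIT1, IFI44 and IFIT3 were chosen after their values were seen:
IFITM1: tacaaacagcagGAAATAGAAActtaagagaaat
IFI44L: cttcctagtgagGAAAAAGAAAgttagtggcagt
IFIT1: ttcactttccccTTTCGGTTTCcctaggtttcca
IFI44: gggcacactgagTTTCAGTTTCctttctct
IFIT3: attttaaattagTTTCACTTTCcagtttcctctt
They lie at chr11:313988-314021, plus strand (IFITM1), chr1:78620363-78620396, plus strand (IFI44L), chr10:89392508-89392541, plus strand (IFIT1), chr1:78649759-78649788, plus strand (IFI44) and chr10:89327863-89327896, plus strand (IFIT3). IFIT1 and IFIT3, which bind viral RNA or its partners, changed by -1.61 ± 0.28 and -1.31 ± 0.12, and IFI44 fell by 1.61 ± 0.20.

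Antigen presentation fell in part. Of 25 genes of MHC class II and its pathway, 13 were lower and 1 higher, at a median of -0.26, but without 1 h replicate 1 the number lower was 6. HLA-DRA, the alpha chain of HLA-DR, read 7.63, 6.86 and 6.41 at 1 h and 5.57, 5.77 and 5.74 at 24 h, a change of -1.27 ± 0.27 (adjusted p = 0.000626). CD74, the chaperone of class II, fell by 0.55 ± 0.10 (adjusted p = 9.15e-05), and PSMB8, a subunit of the immunoproteasome, was the member that rose, by 0.32 ± 0.06 (adjusted p = 0.000229).

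Targets of NRF2, the transcription factor of the antioxidant response, fell, with 18 of 25 lower, 0 higher and a median of -0.60. SLC7A11, the cystine importer that feeds glutathione synthesis, changed by -2.13 ± 0.25 (adjusted p = 3.17e-07). GCLM, the modifier subunit of the enzyme that starts glutathione synthesis, stood at 9.90, 9.34 and 9.68 at 1 h and 7.50, 7.72 and 7.60 at 24 h. Its groups lay over 1.5 units apart with less than 0.6 within either, and the change was -2.03 ± 0.19 (adjusted p = 7.63e-09). TXNRD1, thioredoxin reductase, fell by 1.33 ± 0.08 (adjusted p = 2.19e-12), NQO1, a quinone reductase, fell by 1.31 ± 0.09 (adjusted p = 1.73e-11), and HMOX1, haem oxygenase, fell by 0.64 ± 0.11 (adjusted p = 4.67e-05). The antioxidant response element, searched as TGACNNNGC on both strands, was found in 6 of 19 members with an entry (31.6%), against 11.0% of all promoters and 12.2% of genes tested. The 250 bases before GCLM (chr1:93909431-93909680, minus strand) are shown because its fall was the largest among the called members that hold it. The match lies close to the start, on the other strand, as GCTTAGTCA in capitals:
GCLM: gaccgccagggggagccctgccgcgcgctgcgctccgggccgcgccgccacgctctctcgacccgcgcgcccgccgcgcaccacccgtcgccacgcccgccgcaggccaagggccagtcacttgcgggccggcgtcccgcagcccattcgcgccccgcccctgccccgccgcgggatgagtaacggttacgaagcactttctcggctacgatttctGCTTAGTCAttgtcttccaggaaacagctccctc

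Of 11 metallothionein and zinc transport genes, 6 were lower and 2 higher, at a median of -0.35. SLC30A1, the zinc exporter, fell by 1.22 ± 0.18 (adjusted p = 6.68e-06) and MT1E, a metallothionein, fell by 0.67 ± 0.11 (adjusted p = 2.44e-05), while SLC39A14, a zinc and iron importer, rose by 1.35 ± 0.14 (adjusted p = 3.15e-08). MT2A read 8.94, 8.72 and 8.59 at 1 h and 8.54, 8.22 and 8.44 at 24 h, a change of -0.35 ± 0.11 (adjusted p = 0.0119). Its call was lost without 1 h replicate 1 (adjusted p = 0.0955), without 24 h replicate 2 (0.0883) and in a limma fit of the 6 control arrays alone (0.0589). Its adjusted p ran from 0.00584 to 0.0955 over the alternatives. Among 13 genes of iron handling, 4 rose (2 without 24 h replicate 3) and 2 fell; HAMP, the gene of the iron hormone hepcidin, rose by 0.97 ± 0.12 (adjusted p = 8.73e-07).

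Of 18 genes of sterol synthesis and uptake, 17 fell, 0 rose and the median was -1.26. HMGCS1, the synthase that commits acetyl-CoA to the pathway, read 10.35, 10.21 and 10.33 at 1 h and 8.0, 8.24 and 8.32 at 24 h, a change of -2.11 ± 0.11 (adjusted p = 6.73e-13). FDPS, which makes farnesyl diphosphate, stood at 12.34, 12.39 and 12.34 at 1 h and 10.26, 10.26 and 10.29 at 24 h, a change of -2.09 ± 0.06 (adjusted p = 7.13e-19). In both the groups were about 2 units apart with little spread. IDI1, the isomerase before it, fell by 2.03 ± 0.10 and TMEM97, a sterol-regulated receptor, fell by 2.47 ± 0.20. Of 14 genes of fatty acid synthesis and desaturation, 9 fell and 3 rose, at a median of -0.30, and 1 rose without 1 h replicate 2 or without 24 h replicate 2. FADS2 and SCD, desaturases, changed by -1.61 ± 0.17 (adjusted p = 5.55e-08) and -1.49 ± 0.08 (adjusted p = 6.38e-13). The sterol regulatory element, searched as TCACNCCAC on both strands, was found in 1 of 17 sterol genes with an entry (5.88%). It stood in 0.875% of all promoters and 0.849% of those of genes tested.

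Genes of lipid efflux and storage moved both ways. Of 27 targets of LXR and PPAR, nuclear receptors for sterols and fatty acids, 12 rose and 6 fell, at a median of 0.09. ABCG1, which exports cholesterol, read 4.96, 6.22 and 5.76 at 1 h and 7.32, 7.20 and 6.87 at 24 h, a change of 1.49 ± 0.32 (adjusted p = 0.000575); its 1 h arrays spread over more than 1 unit and all lay under the 24 h arrays. LPL, lipoprotein lipase, rose by 1.20 ± 0.11 (adjusted p = 2.85e-09) and APOE, the lipoprotein of macrophages, by 1.06 ± 0.16 (adjusted p = 8.93e-06). FABP3, a fatty acid carrier, fell by 1.04 ± 0.08, PPARD, the receptor itself, fell by 1.03 ± 0.21, and NPC1, which releases cholesterol from lysosomes, fell by 0.74 ± 0.10.

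**Figure D4:**
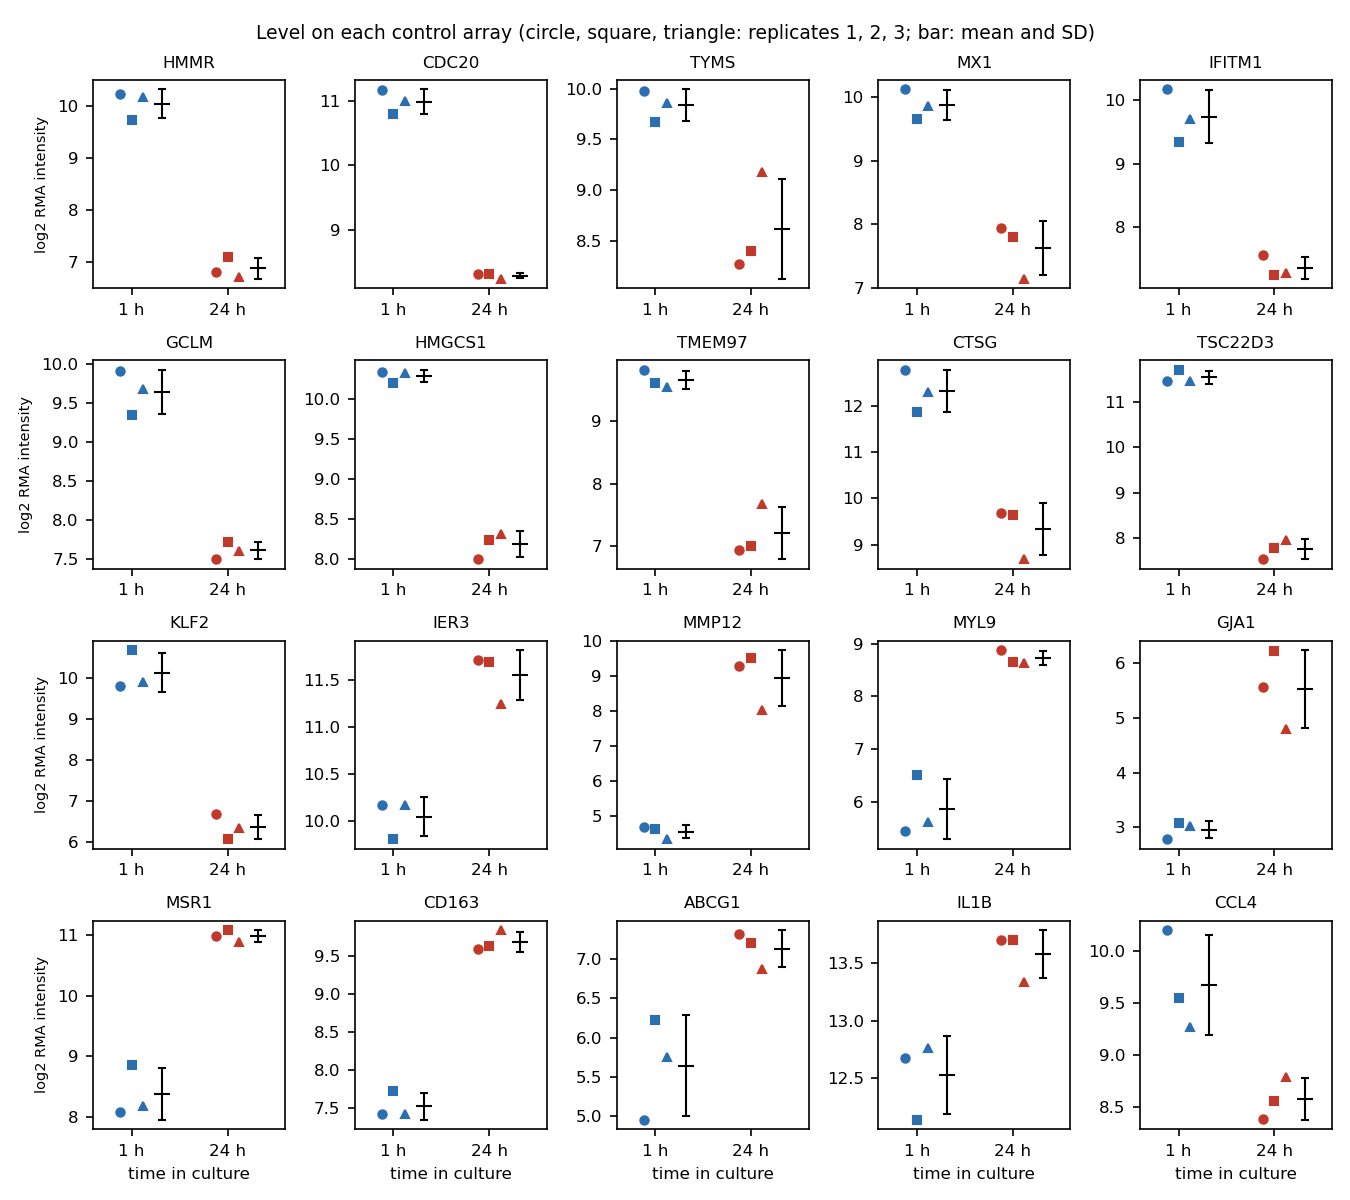
Level of 20 genes on each control array (vertical axis, log2 RMA intensity; horizontal axis, time in culture; circle, square and triangle are replicates 1, 2 and 3; bars are mean and SD of 3 arrays). In every panel the 3 arrays at 24 h lie wholly on one side of those at 1 h. The panels show called genes, and 3552 of all 3708 called genes and 45% of all genes tested lie so. TYMS, MMP12 and CTSG have 1 array at 24 h, replicate 3, away from the others.

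Genes of the granules and of the dividing myeloid progenitor fell. Of 20 members, 14 were lower and 2 higher, at a median of -0.86. CTSG, cathepsin G of azurophil granules, stood at 12.78, 11.87 and 12.31 at 1 h and 9.69, 9.64 and 8.69 at 24 h. Replicate 3 was the lowest at 24 h, all 24 h arrays lay over 2 units under those at 1 h, and the change was -2.98 ± 0.36 (adjusted p = 3.67e-07). ELANE, neutrophil elastase, changed by -2.49 ± 0.43 (adjusted p = 5.35e-05), PRTN3, proteinase 3, by -2.38 ± 0.44 (adjusted p = 0.000115), and MS4A3, a marker of granulocyte and monocyte progenitors, by -2.67 ± 0.36 (adjusted p = 2.29e-06). PLAC8 and SPINK2 were the members that rose, by 1.32 ± 0.19 and 0.51 ± 0.12. The summed intensity of the list was 15.09 to 15.48 (log2) at 1 h and 13.68 to 14.10 at 24 h.

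Macrophage markers moved both ways and rose on balance. Of 29, 14 were higher and 7 lower, at a median of 0.22, and their summed intensity went from 16.60 to 16.72 at 1 h to 16.92 to 16.95 at 24 h. CD14, the co-receptor for lipopolysaccharide, read 6.69, 7.26 and 6.51 at 1 h and 7.46, 7.59 and 8.18 at 24 h, a change of 0.92 ± 0.24 (adjusted p = 0.00319). CSF1R, the receptor of the macrophage growth factor, stood at 9.92, 9.93 and 10.02 at 1 h and 10.84, 10.77 and 10.81 at 24 h, a change of 0.85 ± 0.08 (adjusted p = 4.73e-09). ITGAM, the integrin chain CD11b by which PMA-treated THP-1 cells are often judged, stood at 9.77, 10.28 and 9.87 at 1 h and 11.45, 11.47 and 11.51 at 24 h, a change of 1.5 ± 0.16 (adjusted p = 6.05e-08). Its second kept probe set changed by 0.14 ± 0.15 (adjusted p = 0.514). On the chosen probe sets the arrays at 24 h lay above all those at 1 h in each of the 3. The times also did not overlap in 3552 of all 3708 called genes. MMP9, gelatinase B, rose by 1.15 ± 0.08 (adjusted p = 4.4e-11) and MRC1 by 1.27 ± 0.31 (adjusted p = 0.00188). SPP1, osteopontin, changed by 0.51 ± 0.16 (adjusted p = 0.0128); without 1 h replicate 1 its adjusted p was 0.0881, and over the alternatives 0.00476 to 0.0881. ADGRE5, the adhesion receptor CD97, fell by 2.45 ± 0.14 (adjusted p = 2.22e-12), from 10.09, 10.43 and 10.11 at 1 h to 7.86, 7.77 and 7.63 at 24 h. NCF1, a subunit of the phagocyte oxidase, fell by 1.23 ± 0.16, IRF8, a factor of monocyte fate, fell by 1.07 ± 0.12, and ITGAL, the integrin chain of LFA-1, fell by 0.66 ± 0.15.

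Of 24 scavenger and phagocytic receptors, 13 rose and 5 fell, at a median of 0.34. MSR1, the class A scavenger receptor, read 8.08, 8.86 and 8.18 at 1 h and 10.99, 11.08 and 10.89 at 24 h, a change of 2.61 ± 0.21 (adjusted p = 4.77e-10). CD163, the receptor for haemoglobin and haptoglobin, stood at 7.42, 7.72 and 7.41 at 1 h and 9.59, 9.63 and 9.84 at 24 h, a change of 2.17 ± 0.15 (adjusted p = 2.89e-11). Both were about 2 units higher on every array at 24 h. MERTK, which clears apoptotic cells, rose by 1.88 ± 0.20 (adjusted p = 6.15e-08) and CD300A, an inhibitory lipid receptor, by 1.43 ± 0.16 (adjusted p = 1.03e-07). GAS6, the ligand that bridges MERTK to dying cells, fell by 0.91 ± 0.07 (adjusted p = 3.46e-10), and SIGLEC1, sialoadhesin, fell by 1.13 ± 0.13 (adjusted p = 2.19e-07). Of 17 Fc receptor and complement genes, 7 rose and 3 fell: CD59, which stops the membrane attack complex, rose by 1.86 ± 0.13, while FCGR2A, the activating low-affinity Fc receptor, fell by 1.71 ± 0.10. FCGR2B, the inhibitory one, rose by 0.73 ± 0.19 (adjusted p = 0.00311). FCGR2A and FCGR2B are near-identical in long stretches, so their probe sets may share signal.

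More proteases of the matrix rose than fell. Of 22 matrix metalloproteinases, their inhibitors and ADAMs, 11 were higher and 3 lower, at a median of 0.31. Beside MMP12, MMP10, stromelysin 2, rose by 2.05 ± 0.33 (adjusted p = 2.33e-05), MMP1, interstitial collagenase, by 1.82 ± 0.22 (adjusted p = 5.17e-07) and MMP19 by 1.21 ± 0.21 (adjusted p = 4.86e-05). ADAM10, a sheddase, was among those lower (-0.31 ± 0.07). Of 16 genes of plasminogen activation and coagulation, 8 rose and 1 fell, at a median of 0.48: PLAU, urokinase, read 7.96, 8.15 and 7.99 at 1 h and 9.51, 9.34 and 8.84 at 24 h, a change of 1.20 ± 0.17 (adjusted p = 6.1e-06), and F3, tissue factor, changed by 1.40 ± 0.35 (adjusted p = 0.00253).

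The actin cytoskeleton was the list with the largest share higher, 23 of 29, with 2 lower and a median of 0.43. MYL9, a regulatory light chain of myosin, stood at 5.45, 6.51 and 5.62 at 1 h and 8.88, 8.65 and 8.64 at 24 h. Replicate 2 was high at 1 h and yet 2 units under every 24 h array, and the change was 2.87 ± 0.20 (adjusted p = 6.25e-11). VCL, vinculin, which ties integrins to actin, read 8.90, 9.18 and 9.07 at 1 h and 10.63, 10.73 and 10.61 at 24 h, a change of 1.61 ± 0.10 (adjusted p = 1.24e-11). TPM2, a tropomyosin, rose by 1.92 ± 0.20, PXN, paxillin of the focal adhesion, by 1.38 ± 0.10, and ACTB, beta actin, by 0.35 ± 0.07 (adjusted p = 0.000159). CNN3, a calponin, and EZR, ezrin, which links actin to the membrane, changed by -1.44 ± 0.14 and -1.19 ± 0.14. Of 26 integrins and adhesion genes, 12 rose and 5 fell, at a median of 0.27. GJA1, a connexin of gap junctions, read 2.78, 3.07 and 3.02 at 1 h and 5.57, 6.22 and 4.79 at 24 h, a change of 2.57 ± 0.29 (adjusted p = 1.65e-07), from a 1 h level near the floor. ITGB7, an integrin chain, rose by 2.23 ± 0.26, and VCAM1, an adhesion ligand, by 1.57 ± 0.25. SELPLG, the selectin ligand of leukocytes, and ITGA4, a chain of VLA-4, changed by -0.72 ± 0.13 and -0.53 ± 0.12.

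Matrix proteins and the TGF-beta family moved both ways. Of 27, 9 rose and 8 fell (5 without 24 h replicate 1 or 3), at a median of 0.04. COL4A1 and COL4A2, neighbouring genes for chains of basement membrane collagen, rose by 2.09 ± 0.12 and 1.56 ± 0.06, and LTBP2, a matrix protein, by 1.59 ± 0.13. CCN2, a target of TGF-beta and of cell tension, read 7.10, 7.69 and 6.46 at 1 h and 4.2, 4.54 and 4.39 at 24 h, a change of -2.71 ± 0.36 (adjusted p = 1.99e-06). TGFB2, a ligand, fell by 1.57 ± 0.38, TGFBR1, the type I receptor, fell by 1.11 ± 0.14 and SMAD7, the inhibitor within the cell, fell by 0.79 ± 0.17. FN1, fibronectin, read 7.09, 7.55 and 6.99 at 1 h and 7.89, 8.16 and 9.73 at 24 h, a change of 1.39 ± 0.45 (adjusted p = 0.017). That call was lost without 1 h replicate 1 (adjusted p = 0.0523), without 1 h replicate 3 (0.0594) and without 24 h replicate 3 (0.17, with a change of 0.82), and the adjusted p ran from 0.00761 to 0.17 over the alternatives.

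Immediate early genes did not move as a block. Of 26, 10 fell and 6 rose, at a median of -0.23. Beside KLF2 and NR4A2, FOSB, an AP-1 subunit, stood at 6.93, 7.40 and 6.64 at 1 h and 5.01, 5.15 and 5.40 at 24 h, a change of -1.80 ± 0.23 (adjusted p = 1.29e-06), and ATF3, a stress-induced repressor, changed by -1.43 ± 0.15 (adjusted p = 3.02e-08). IER3, an apoptosis regulator induced by growth factors, moved the other way, from 10.17, 9.81 and 10.17 at 1 h to 11.72, 11.70 and 11.25 at 24 h, a change of 1.5 ± 0.17 (adjusted p = 2.15e-07). FOSL1, another AP-1 subunit, rose by 0.82 ± 0.11 (adjusted p = 1.87e-06) and HBEGF, a ligand of the EGF receptor, by 0.53 ± 0.08 (adjusted p = 7.38e-06). EGR1 read 10.70, 10.25 and 11.29 at 1 h and 11.71, 11.77 and 11.41 at 24 h, a change of 0.88 ± 0.27 (adjusted p = 0.0131); without 1 h replicate 2, the lowest, it was 0.63 (adjusted p = 0.101), and the adjusted p ran from 0.00309 to 0.101.

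FOS, the founding AP-1 gene, read 9.67, 10.16 and 9.77 at 1 h and 9.51, 9.52 and 9.36 at 24 h, a change of -0.41 ± 0.16 (adjusted p = 0.0488). Its call was lost without 1 h replicate 2 or 3 and without any one of the 24 h arrays. In limma it was also lost after quantile normalization (adjusted p = 0.0567), without the filter on dim probe sets (0.0556) and with array weights (0.0619). The adjusted p of FOS ran from 0.019 to 0.262 over the alternatives. NR4A1 changed by -0.25 ± 0.07 (adjusted p = 0.00612) and kept its call without any one array; its adjusted p was 0.0636 in a fit of the 6 arrays alone and 0.00148 to 0.227 over the alternatives. MYC changed by 0.29 ± 0.14 (adjusted p = 0.117) and DUSP1, the phosphatase that ends MAP kinase signals, by 0.13 ± 0.23 (adjusted p = 0.716), neither past the threshold. Of 19 immediate early genes with a promoter entry, 1 held the AP-1 site TGACTCA (5.26%, against 4.16% of all promoters and 2.82% of genes tested). The cAMP response element TGACGTCA also stood in 1 of them (5.26%, against 1.77% of all promoters and 3.0% of genes tested). The serum response element (CArG box) stood in 2 (10.5%, against 1.14%), EGR1 and SRF, both of which were higher at 24 h. SRF, the factor that binds it, named after its value was seen, changed by 0.31 ± 0.07.

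Feedback regulators of MAP kinases split, with 6 of 14 higher and 5 lower, at a median of 0.15. The count of 5 was 3 without 1 h replicate 1, 1 h replicate 3 or 24 h replicate 1, and 2 without 24 h replicate 2. SPRY4, an inhibitor of growth factor signals, rose by 1.55 ± 0.11 (adjusted p = 3.31e-11) and DUSP5, a phosphatase for ERK, by 1.26 ± 0.17 (adjusted p = 2.85e-06), while DUSP14 fell by 1.13 ± 0.09 (adjusted p = 1.82e-10). Of 18 genes of PMA receptors and diacylglycerol signals, 3 rose and 3 fell. PRKCA, the alpha isoform of protein kinase C, rose by 0.49 ± 0.11 (adjusted p = 0.00142), and PRKCB, the beta isoform, fell by 0.75 ± 0.17 (adjusted p = 0.000883).

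Of 16 genes responsive to glucocorticoid or to FOXO factors, 11 fell and 2 rose, at a median of -0.54. Beside TSC22D3, FOXO3 and FOXO1, the factors themselves, changed by -1.21 ± 0.29 (adjusted p = 0.00181) and -1.03 ± 0.21 (adjusted p = 0.000422), and CCNG2, a FOXO target that slows the cycle, fell by 1.05 ± 0.13 (adjusted p = 5.34e-07). TXNIP, which binds thioredoxin and curbs glucose uptake, rose instead, from 10.59, 11.03 and 11.12 at 1 h to 11.56, 11.62 and 11.64 at 24 h, a change of 0.69 ± 0.16 (adjusted p = 0.00144).

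Inflammatory ligands changed gene by gene and not as a group. Of 14 cytokines, 3 rose and 2 fell, at a median of 0.02, of 11 CXC chemokines 4 rose (2 without 24 h replicate 2) and 1 fell, at 0.34, and of 11 CC chemokines 1 rose and 2 fell, at -0.20. IL1B, interleukin-1 beta, read 12.68, 12.14 and 12.76 at 1 h and 13.70, 13.70 and 13.34 at 24 h, a change of 1.06 ± 0.20 (adjusted p = 0.000186). IL1RN, the antagonist of the same receptor, rose by 1.08 ± 0.15 (adjusted p = 2.73e-06), and IL1R1, the receptor, by 1.99 ± 0.16 (adjusted p = 3.6e-10). For these 3 genes the arrays at 24 h lay above all those at 1 h, and 3552 of all 3708 called genes likewise did not overlap. PPBP, a platelet and monocyte chemokine, rose by 1.86 ± 0.41 (adjusted p = 0.000834), CXCL3, a ligand for neutrophils, by 1.11 ± 0.15 (adjusted p = 2.71e-06) and CCL20, a ligand for lymphocytes and dendritic cells, by 1.75 ± 0.23 (adjusted p = 1.75e-06). CCL4, a CC chemokine, stood at 10.20, 9.55 and 9.27 at 1 h and 8.39, 8.56 and 8.79 at 24 h, a change of -1.09 ± 0.23 (adjusted p = 0.00046). TNF changed by 0.23 ± 0.21 (adjusted p = 0.416), CXCL8 by 0.15 ± 0.11 (adjusted p = 0.299) and CCL2 by -0.25 ± 0.22 (adjusted p = 0.402). These 3 did not pass the threshold, which does not show that they were equal at both times.

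Of 25 chemokine and cytokine receptors, 10 fell and 7 rose, at a median of -0.09. CCR2, the monocyte receptor for CCL2, fell by 1.17 ± 0.25 (adjusted p = 0.000534) and CCR1 fell by 0.97 ± 0.16 (adjusted p = 3.11e-05). Of 16 NF-kappaB subunits and feedback targets, 6 fell and 1 rose, at a median of -0.04; TNFAIP6, a secreted hyaluronan-binding protein, fell by 1.59 ± 0.40 (adjusted p = 0.00286) and TNFAIP2 fell by 1.08 ± 0.10 (adjusted p = 8.48e-09). Of 19 Toll-like receptor and inflammasome genes, 3 rose and 3 fell. IRAK3, the inhibitory kinase of Toll-like receptor signals, read 6.98, 6.90 and 6.93 at 1 h and 4.77, 5.10 and 5.03 at 24 h, a change of -1.98 ± 0.17 (adjusted p = 1.09e-09), and CASP1, which cleaves interleukin-1 beta, fell by 0.66 ± 0.13 (adjusted p = 0.000205). Among 16 genes of prostaglandin and leukotriene synthesis, 1 rose and 6 fell: ALOX5, 5-lipoxygenase, rose by 2.12 ± 0.36 (adjusted p = 4.78e-05) on its chosen probe set and by 0.30 ± 0.11 and 0.57 ± 0.14 on the other two, and PLA2G7, which breaks down platelet-activating factor, fell by 1.88 ± 0.22 (adjusted p = 2.14e-07).

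Housekeeping machinery shifted by small steps. Of 24 genes of ribosome biogenesis, 12 rose and 0 fell, at a median of 0.25 (5 to 13 higher over the alternatives), with NOP16, a nucleolar protein, at 0.59 ± 0.09 (adjusted p = 1.75e-05). Of 16 aminoacyl-tRNA synthetases, 9 rose and 1 fell, at a median of 0.20 (4 to 9 higher), with VARS1, for valine, at 0.49 ± 0.07 (adjusted p = 5.89e-06). Of 36 genes of oxidative phosphorylation, 14 rose and 1 fell, at a median of 0.11 (5 to 14 higher), with NDUFB6, of complex I, at 0.47 ± 0.06 (adjusted p = 3.14e-07). Of 25 cytosolic ribosomal proteins, 0 rose and 2 fell, at a median of -0.03, and GAPDH of glycolysis changed by 0.07 ± 0.05 (adjusted p = 0.372). The lists of ribosome biogenesis, synthetases and oxidative phosphorylation moved by less than 0.3 at the median.

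Lysosomal genes divided, with 11 of 39 higher (7 without 24 h replicate 1) and 12 lower, at a median of 0.02. FUCA1, a fucosidase, rose by 1.34 ± 0.20 (adjusted p = 1.08e-05) and CTSC, cathepsin C, by 0.63 ± 0.05 (adjusted p = 3.67e-10); GLA, an alpha-galactosidase, and NEU1, a sialidase, changed by -1.24 ± 0.11 (adjusted p = 3.22e-09) and -1.01 ± 0.07 (adjusted p = 1.68e-11). Of 15 subunits of the vacuolar proton pump, 8 fell and 1 rose (4 to 8 lower over the alternatives): ATP6V1A, the catalytic subunit, fell by 0.97 ± 0.08 (adjusted p = 1.55e-09) and TCIRG1, a membrane subunit, rose by 0.88 ± 0.11 (adjusted p = 6.51e-07). Of 28 autophagy genes, 10 fell and 1 rose, at a median of -0.14 (6 lower without 1 h replicate 3), among them RB1CC1, of the initiating kinase complex (-0.90 ± 0.12), and GABARAPL1, of autophagosomes (-0.82 ± 0.10). Of 30 genes of hypoxia and glycolysis, 5 rose (3 without 24 h replicate 1) and 5 fell; ADM, adrenomedullin, changed by 0.78 ± 0.14 and NDRG1, a hypoxia marker, by -0.85 ± 0.09.

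Stress and death genes were called in both directions, in 34.8% of heat shock proteins and chaperones, 21.4% of the unfolded protein and integrated stress response and 38.9% of the BCL2 family and cell death genes, against 36.9% of all genes. Of 23 heat shock proteins and chaperones, 4 rose and 4 fell (1 without 1 h replicate 2 or 24 h replicate 1, 2 without 1 h replicate 3 or 24 h replicate 3). Of 28 genes of the unfolded protein and integrated stress response 4 rose and 2 fell, and of 18 BCL2 family and cell death genes 3 rose and 4 fell. PMAIP1, the killer protein NOXA, fell by 1.31 ± 0.07 (adjusted p = 1.72e-13), from 10.11, 10.10 and 10.16 at 1 h to 8.79, 8.97 and 8.68 at 24 h. CALR, calreticulin, rose by 0.43 ± 0.07 and ASNS, asparagine synthetase, by 0.71 ± 0.18. HSPB1, a small heat shock protein, fell by 0.61 ± 0.13.

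Of the markers of other cell types, 9.09% of those of lymphocytes, 22.2% of those of epithelium and 36.4% of those of fibroblasts and endothelium were called, against 36.9% of all genes. Of 11 lymphocyte markers, 0 rose and 1 fell, PAX5, a factor of B cells, at -1.64 ± 0.20 (adjusted p = 3.51e-07). The other kept PAX5 probe set changed by -0.04 ± 0.12 (adjusted p = 0.845). The summed intensity of the lymphocyte list was 9.0 to 9.13 at 1 h and 8.69 to 8.81 at 24 h. Of 9 epithelial markers, 2 rose and 0 fell, with CLDN7, a tight junction protein, at 0.36 ± 0.10, and the sum was 9.22 to 9.32 at 1 h and 9.24 to 9.32 at 24 h. Of 11 fibroblast and endothelial markers, 2 rose and 2 fell. FAP, a protease of activated fibroblasts, changed by 0.80 ± 0.26 (adjusted p = 0.0181) with groups that overlapped. In limma its call was lost without 1 h replicate 1 (adjusted p = 0.0874), 1 h replicate 2 (0.0775) or 24 h replicate 2 (0.111). It was also lost in a fit of the 6 control arrays with the replicate number as a block (0.0611). VWF, von Willebrand factor, fell by 0.93 ± 0.16. COL1A1, PDGFRA, VWF and PECAM1, 4 of the 11, lay above the array median on all 6 arrays, and 6 lay below it on all 6. Their part in the results was not tested, and the sum was 12.05 to 12.11 at 1 h and 11.74 to 11.89 at 24 h.

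The same change over a day could be read in cells that had particles. Its group means come from other arrays than those of the controls, while the spread in the fit and the choice of probe sets come from all 30 arrays. Over all 10050 genes the log2 changes correlated with those of the controls at 0.949 with 10 µg/ml MWCNT, 0.959 with 10 µg/ml TiO2-NB, 0.833 with 100 µg/ml MWCNT and 0.730 with 100 µg/ml TiO2-NB; genes are not independent replicates. Of the 3708 genes called in the controls, 85.1%, 78.8%, 72.8% and 60.1% were called in the same direction in these groups. They made up 73.2%, 85.3%, 66.4% and 47.4% of the genes called there, which were 24.4% of genes tested higher and 18.5% lower with 10 µg/ml MWCNT and 18.5% and 15.6% with 10 µg/ml TiO2-NB. At 100 µg/ml they were 22.7% higher and 17.7% lower with MWCNT and 26.1% and 20.7% with TiO2-NB. At 10 µg/ml, 0 genes differed from the controls in their change by limma with either material, with 408 (MWCNT) and 256 (TiO2-NB) at an unadjusted p under 0.05 and smallest adjusted p-values of 0.271 and 0.264.

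**Figure D5:**
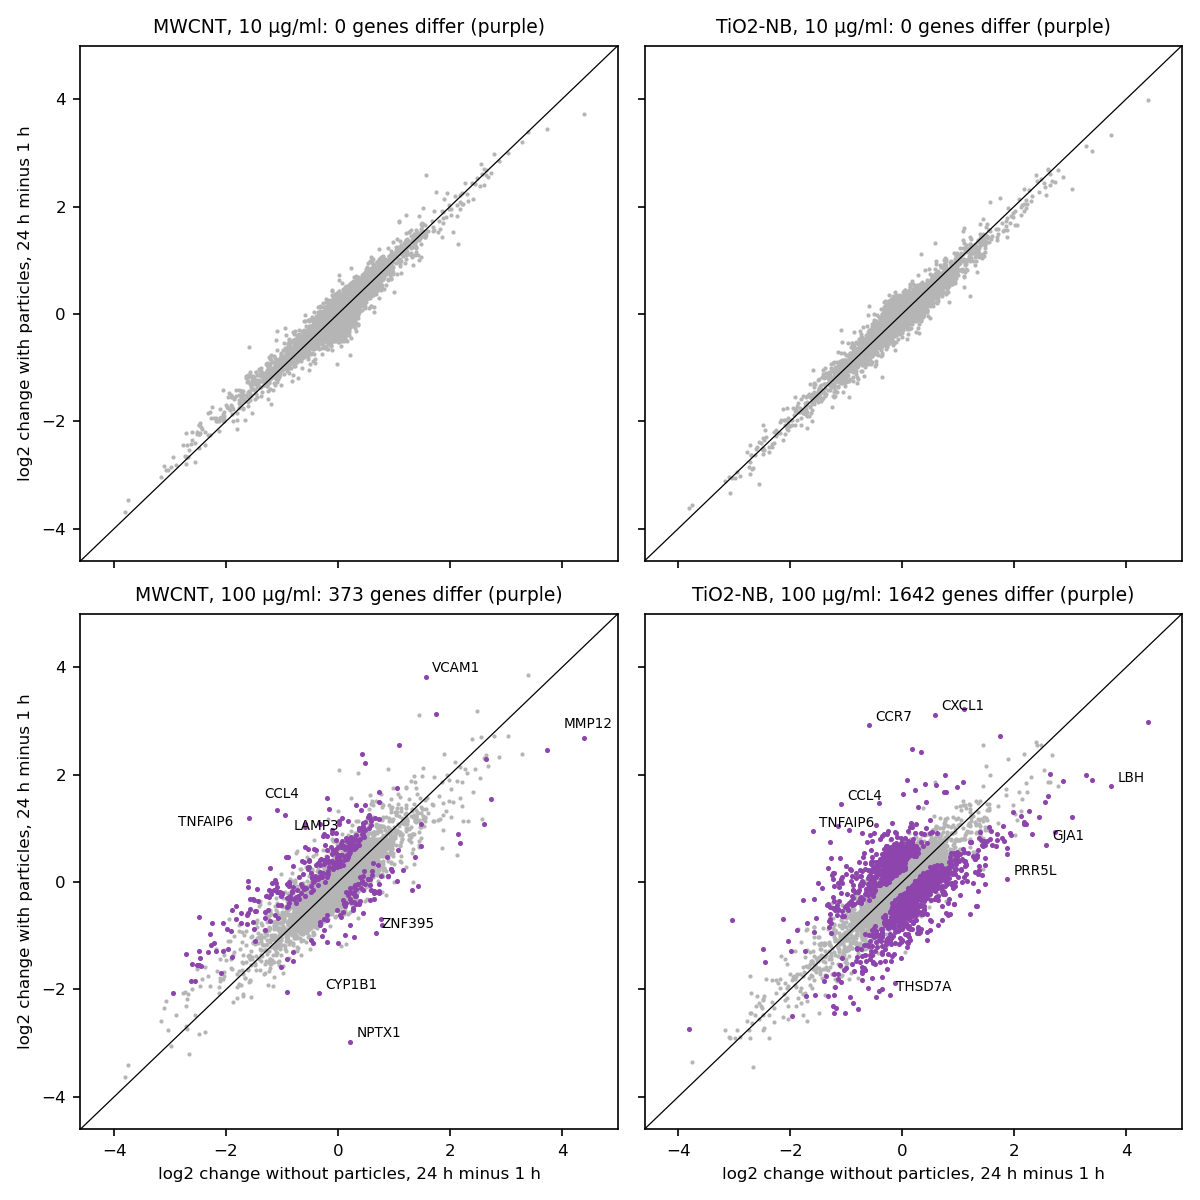
Change of each gene from 1 h to 24 h with particles (vertical axes, log2) against that without particles (horizontal axes, log2), 1 panel for each material and dose, with the line of equal change. Genes whose change differed are purple, 0 in both panels of 10 µg/ml, 373 with 100 µg/ml MWCNT and 1642 with 100 µg/ml TiO2-NB, and the named ones are the largest differences.

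At 100 µg/ml the change over the day differed from that of the controls for 373 genes with MWCNT, 265 (2.64%) higher and 108 (1.07%) lower, and for 1642 with TiO2-NB, 753 (7.49%) higher and 889 (8.85%) lower. When arrays were centred on their medians, the split for TiO2-NB was 984 higher and 720 lower, and after quantile normalization 879 higher and 683 lower. The count for MWCNT was 173 without control 24 h replicate 1 and 193 without control 1 h replicate 1, and that for TiO2-NB was 1077 without control 24 h replicate 2. The median change of the mitosis genes was -2.22 in controls, -1.94 and -2.23 at 10 µg/ml and -1.34 and -1.98 at 100 µg/ml of MWCNT and TiO2-NB. With 100 µg/ml MWCNT, 12 of 35 mitosis genes, 16 of 34 replication genes and 16 of 33 interferon-stimulated genes were higher in their change than in controls, and 0 of each were lower. The replication genes had a median change of 0.01 there, against -0.71 in controls, and the interferon-stimulated genes -0.29 against -0.87. With 100 µg/ml TiO2-NB the corresponding counts were 0 of 35, 1 of 34 and 3 of 33, while 12 of 25 NRF2 targets were higher and 1 lower, with a median of -0.32 against -0.60. The sterol list kept a negative median in every group, from -1.05 to -1.49.

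For single genes the values stand side by side as follows. HMMR changed by -3.17 in controls, -3.03 and -3.12 at 10 µg/ml and -2.58 and -2.75 at 100 µg/ml of MWCNT and TiO2-NB. MX1 changed by -2.25 in controls, -1.74 and -2.16 at 10 µg/ml and -0.76 and -1.82 at 100 µg/ml. GCLM changed by -2.03, -1.90, -1.93, -1.35 and -1.10 in the same order. MMP12 rose in each group, by 4.40, 3.73, 3.98, 2.68 and 2.98. TSC22D3 changed by -3.80, -3.69, -3.61, -3.63 and -2.74. HMMR, MX1, GCLM and TSC22D3 kept a negative change and MMP12 a positive one in all 5 groups. This is not particular to them. Of the 523 genes called at least 2-fold in controls, 523 kept their sign with 10 µg/ml of either material. At 100 µg/ml, 514 did so with MWCNT and 502 with TiO2-NB.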

How the data were processed

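The deposited values are log2 intensities per probe set that the authors computed with RMA (per the submitters' processing notes, version not given); array software and genome build are not given in the sources used here. RMA corrects background, normalizes between arrays and summarises probes, which makes array medians alike (6.35 to 6.46) and compresses low values. The values (1.89 to 14.42) were not normalized again. Of 22277 probe sets, 62 were control features, 19064 named 1 gene by the platform annotation, 1043 several and 2108 none; the last 2 kinds were left out. Symbols were updated through RefSeq for 19052 and kept for 12. A one-gene probe set was kept if at least 3 of 30 arrays had it above their 25th percentile (15309 were), and the one with the highest mean over all arrays stood for its gene.

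In R 4.3.3, limma 3.58.1 was fitted to all 30 arrays with 10 group means (20 residual degrees of freedom). Its moderated two-sided p-values were adjusted (Benjamini-Hochberg) over 10050 genes, comparison by comparison, and a gene was called under 0.05. The fit was checked on simulated data with independent noise and far fewer changed genes than were called here. Effects shared between arrays were not simulated, so that check does not cover them. The files give no genome positions; promoters came from RefSeq (GRCh38.p14), the first entry of each symbol.

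Comparisons, members and lists were chosen with earlier results of these data known. Genes were named by a rule: the 15 largest rises and falls with arrays that do not overlap, up to 4 called members per list and direction, 22 fixed genes, and the 4 largest differences per direction from the exposed groups; CD68, among the fixed genes, was not analysed here. Of 121 called named genes with several kept probe sets, 82 had all of them called the same way and 0 had one called the other way. Alternatives changed the samples fitted, the scaling, the filter, the probe set rule, the replicate block, the prior and the array weights, or left out 1 array.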

Additional observations from a re-analysis of the deposited data

Results flagged for a closer look

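The change from 1 h to 24 h was tested between cells with MWCNT at 100 µg/ml and control cells, and the 4 largest differences in each direction are given here, each with its limma adjusted p over all genes; that difference itself is why each was picked out. TNFAIP6, the secreted hyaluronan-binding protein, changed by -1.59 in controls and 1.20 with the particles, a difference of 2.79 ± 0.57 (adjusted p = 0.00671). For CCL4, a CC chemokine, the difference was 2.43 ± 0.32 (adjusted p = 0.000113), from -1.09 in controls to 1.34 with the particles. VCAM1, the adhesion ligand, changed by 1.57 in controls and 3.83 with the particles, a difference of 2.27 ± 0.35 (adjusted p = 0.000618). For LAMP3, a lysosomal membrane protein, the difference was 2.20 ± 0.39 (adjusted p = 0.00246), from -0.95 in controls to 1.25 with the particles. NPTX1, a pentraxin, changed by 0.22 in controls and -2.97 with the particles, a difference of -3.19 ± 0.39 (adjusted p = 7.35e-05). For MMP12, macrophage elastase, the difference was -1.73 ± 0.47 (adjusted p = 0.0387), from 4.40 in controls to 2.68 with the particles. CYP1B1, a cytochrome P450 enzyme, changed by -0.34 in controls and -2.06 with the particles, a difference of -1.71 ± 0.35 (adjusted p = 0.00638). For ZNF395, a zinc finger protein, the difference was -1.61 ± 0.31 (adjusted p = 0.00392), from 0.67 in controls to -0.94 with the particles. The call for MMP12 was lost without any one of control 1 h replicates 1, 2 and 3 (adjusted p = 0.0682, 0.0542 and 0.093) and control 24 h replicates 1 and 2 (0.123 and 0.113), and in a fit of only the 4 groups concerned (0.119). In these the difference was -1.80 to -1.44, and its adjusted p ran from 0.00403 to 0.123 over the alternatives. The other 7 kept their calls under each alternative run, and so did all 8 with TiO2-NB. In controls LAMP3 lay under the 25th percentile of the arrays at both times, MMP12 and VCAM1 at 1 h, so the control changes of these 3 rest on values near the floor.

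The change from 1 h to 24 h was tested between cells with TiO2-NB at 100 µg/ml and control cells, and the 4 largest differences in each direction are given here, each with its limma adjusted p over all genes; that difference itself is why each was picked out. CCR7, the lymph node homing receptor, changed by -0.59 in controls and 2.93 with the particles, a difference of 3.52 ± 0.24 (adjusted p = 1.34e-09). For CCL4, a CC chemokine, the difference was 2.54 ± 0.32 (adjusted p = 1.29e-05), from -1.09 in controls to 1.45 with the particles. TNFAIP6, the secreted hyaluronan-binding protein, changed by -1.59 in controls and 0.95 with the particles, a difference of 2.54 ± 0.57 (adjusted p = 0.00406). For CXCL1, a neutrophil chemokine, the difference was 2.53 ± 0.32 (adjusted p = 1.15e-05), from 0.58 in controls to 3.12 with the particles. LBH, a transcriptional cofactor, changed by 3.74 in controls and 1.79 with the particles, a difference of -1.95 ± 0.23 (adjusted p = 3.77e-06). For THSD7A, a thrombospondin-domain protein, the difference was -1.89 ± 0.48 (adjusted p = 0.00982), from -0.22 in controls to -2.11 with the particles. GJA1, a connexin of gap junctions, changed by 2.57 in controls and 0.70 with the particles, a difference of -1.87 ± 0.41 (adjusted p = 0.00357). For PRR5L, a partner of the mTORC2 complex, the difference was -1.82 ± 0.21 (adjusted p = 3.77e-06), from 1.88 in controls to 0.06 with the particles. In controls CCR7 lay under the 25th percentile of the arrays at 24 h and GJA1 at 1 h, so their control changes rest on values near the floor.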

How the results depend on the processing

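Of 286 called genes named by the rule, 229 stayed past the threshold in each of the 17 alternatives that tested them. Another 57 lost the call in at least 1, and 0 changed direction. A gene that the stricter filter on dim probe sets left out was not counted as lost there. The count of genes called over the day, 3708, stayed within 1.5 times in each alternative but one: a test against a fold change of 1.5 called 466 genes, 174 higher and 292 lower. A fit of the 6 control arrays alone called 2958, and leaving out 1 array called 3147 to 3420. Deviations of equally numbered arrays at 1 h and 24 h correlated at 0.21, -0.25 and -0.17, and those of differently numbered ones at -0.19 to 0.38. With 3 arrays at each time these values cannot decide whether equal numbers mark a shared preparation. The main fit did not use the numbers as pairs. With the replicate number as a block, 3774 genes were called over all 30 arrays and 2562 over the 6, 1336 of them higher. For the difference between 100 µg/ml MWCNT and controls, 152 genes were called with only the 4 groups concerned, 871 with array weights, and 173 to 483 when 1 control array was left out. For 100 µg/ml TiO2-NB the count was 1019 with only the groups concerned and, when 1 control array was left out, 1077 to 1730. The causes of these shifts were not tested. Rescaling moved the median change of all genes from 0.0303 to values between 0.00486 and 0.0414. The 3 arrays per group and a median residual SD of 0.128 limit what small changes could be called, and probe sets near the floor of the arrays give compressed folds.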

Other observations

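Probe sets of 1 gene could move apart. Of 1369 called genes with several kept probe sets, 1154 had all of them on the same side of 0, and 22 had probe sets called in opposite directions. QKI, an RNA-binding protein that regulates splicing, was among these 22, with 6 kept probe sets: 1 fell by 0.70 ± 0.07 (adjusted p = 3.6e-08), 2 rose by 0.66 ± 0.09 (adjusted p = 2.32e-06) and 0.49 ± 0.15 (adjusted p = 0.0108), and 3 did not pass the threshold in limma. EPRS1, the synthetase for glutamate and proline, had 1 probe set at -0.68 ± 0.16 (adjusted p = 0.00158), 1 at 0.21 ± 0.07 (adjusted p = 0.0213) and 1 not past the threshold. NUP98, a nuclear pore protein, had 2 that rose, by 0.55 ± 0.11 and 0.35 ± 0.10, and 1 that fell by 0.48 ± 0.10. These 3 genes were chosen after their values were seen. The files used here give no probe positions, so which transcript each probe set reads was not tested. Tested 1 by 1, 5386 of 15309 probe sets (35.2%) were called, 2949 higher and 2437 lower.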
